A study of Mus musculus with 5 samples.

Results

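The sites described here are weak DNase I hypersensitive sites that were nevertheless called in every distinct peak list of the series. Peaks of the 3 distinct lists were merged into sites wherever they shared at least 1 bp. A site's score in a list was the highest peak score it held there. A site was a member if it had a peak in all 3 lists and scored under 150 in each. The rule left 916 sites of 52181 in all, or 1.76%. They were 2.87% of the 31871 sites that all 3 lists held (Wilson 95% interval 2.70% to 3.06%), and they covered 932 kb, 1.23% of the merged length. A weak call had to come up in every list, and each list narrowed the class. Sites weak in both remaining lists numbered 4002 without the vehicle list, 2259 without the list of 4-OHT 4 h replicate 2 and 2291 without the list that was deposited under both treatments. Members were thus selected on their scores and on the presence of a peak, so both are given as a description and not as a finding.

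DNase I cuts DNA where nucleosomes are displaced or loosely held, and in mammalian cells such stretches are mostly promoters, enhancers and insulators bound by transcription factors. The caller's score grows with the number of cut fragments over the local background. In a bulk library, a low score cannot tell a site that is open in few cells from one that is partly open in most of them.

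The cells were mouse 3T9 fibroblasts, made from E13.5 embryos of mixed strain. All of them, controls included, carried floxed c-Myc alleles and had been infected in culture with MycER, a Myc protein fused to the hormone-binding part of the estrogen receptor. The compound 4-hydroxytamoxifen (4-OHT) switches MycER on. The treated group had 400 nM 4-OHT for 4 h (2 libraries) and its control had ethanol at 0 h (2 libraries). An input of sonicated genomic DNA was the only other library, and no peak list of it was used here. The study asked which chromatin is accessible before and after Myc activation. Whether the 2 libraries of a group came from separate cultures is not given in the labels, nor is the number of clones behind the cells.

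The 4 deposited lists were 3 different ones. The list of 4-OHT 4 h replicate 1 and that of EtOH 0 h replicate 2 held the same 44956 intervals with the same scores. It is called the repeated list below, and its treatment cannot be told. The 4-OHT list is that of 4-OHT 4 h replicate 2 (47621 peaks) and the vehicle list that of EtOH 0 h replicate 1 (35149 peaks). Treatments are therefore compared with 1 list each, without a replicate check and without a p-value. The numbers of reads behind the peaks are unknown, so the intervals given for shares and medians cover the counting of sites only, and sites near each other are not independent.

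Weak shared sites lay close to the lowest score a list could hold, above all in the vehicle list. Their scores in the 4-OHT list ran between 80.05 and 149.97 with a median of 115. In the repeated list they ran between 80.02 and 149.97 with a median of 114. In the vehicle list they ran between 80.01 and 149.1 with a median of 99.0. The 3 ranges overlap over nearly their whole length, because the rule bounds them on both sides. If the score is minus 10 times the log10 of the caller's p-value, as the caller's name implies, the limit of 150 stands for a p-value of 1e-15 and a score of 80 for 1e-08.

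**Figure D1:**
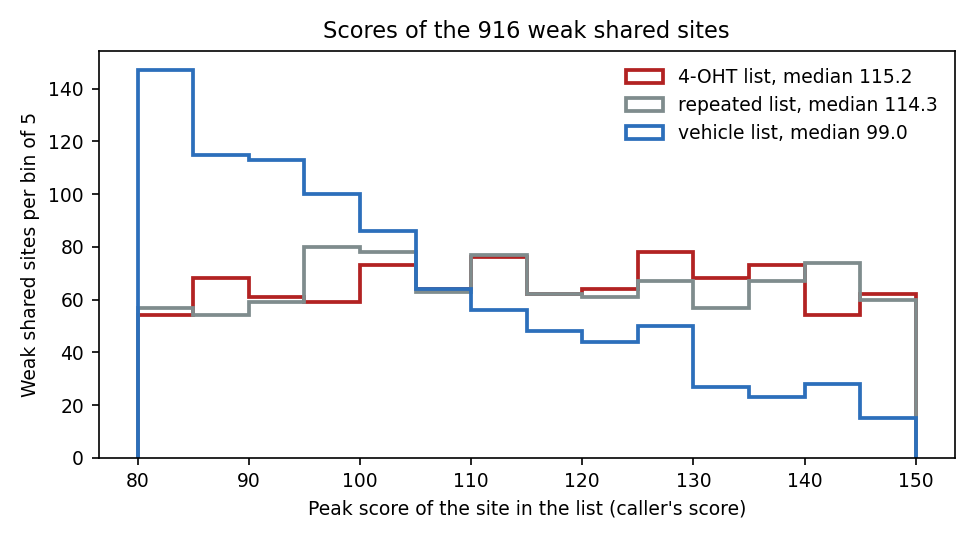
Number of weak shared sites (vertical axis) in score bins of 5 (horizontal axis, caller's score) for the 4-OHT, repeated and vehicle lists. Counts in the vehicle list are highest at the lowest scores (median 99.0), while those of the 4-OHT list (median 115) and the repeated list (median 114) are spread evenly up to the limit.

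In the plot of scores, the vehicle list stands apart by its pile of sites near the floor. In the 4-OHT list 242 members scored under 100 (26.4%), in the repeated list 250 (27.3%) and in the vehicle list 475 (51.9%). The vehicle list held the lowest of the 3 scores at 500 members, the repeated list at 205 and the 4-OHT list at 212. At 68.1% of members the 4-OHT list had a higher score than the vehicle list, and so it did at 83.6% of all shared sites. The rule used both scores, so nothing is read from this difference.

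The limit of 150 cut off a similar part of each list but a very different part of its shared sites. Sites under 150 were 26.6% of the sites of the 4-OHT list, 24.4% of those of the repeated list and 25.6% of those of the vehicle list. Only 17.8% of the weak sites of the 4-OHT list and 20.8% of those of the repeated list were held by all 3 lists, against 77.8% of the weak sites of the vehicle list. The vehicle list was also the shortest. At all scores, the same 31871 shared sites stood among 46415 sites of the 4-OHT list, 44275 of the repeated list and 33979 of the vehicle list. Members were 41.7% of the 2199 shared sites that scored under 150 in the 4-OHT list, 40.7% of the 2248 in the repeated list and 13.54% of the 6763 in the vehicle list. At 4025 shared sites the score was under 150 in the vehicle list alone, at 302 in the 4-OHT list alone and at 255 in the repeated list alone. A shared site that was weak in the vehicle list was thus mostly not weak in the other lists. Scores of all shared sites were lower there too, with medians of 392 in the vehicle list, 681 in the 4-OHT list and 765 in the repeated list.

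The rule holds every score of a member between the floor of its list and 150, which bounds how far the 3 scores can lie apart. The gap between the highest and the lowest of the 3 scores had a median of 32.5 and ran between 0.60 and 68.2. It was under 10 at 73 members (7.97%). Across the 916 members, Spearman's rho between scores was 0.11 for the 4-OHT and vehicle lists, 0.08 for the 4-OHT and repeated lists and 0.05 for the repeated and vehicle lists. Over all shared sites the same 3 values were 0.94, 0.94 and 0.94. The rule cut the members to a narrow range of scores, which lowers such a correlation, so nothing is read from the low values.

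The rule set no bound on width. Spearman's rho between peak widths of the members was 0.62 for the 4-OHT and vehicle lists, 0.64 for the 4-OHT and repeated lists and 0.63 for the repeated and vehicle lists. Over all shared sites the width gave 0.88, 0.91 and 0.88 for the same pairs.

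The weakest sites of the class scored within a few units of the floor in every list. The lowest was at chr6:53344875-53345680, with scores of 83.4 in the 4-OHT list, 84.4 in the repeated list and 83.6 in the vehicle list. Next came chr6:17825444-17826329, with 84.4, 84.6 and 82.6 in the same order of lists. The other 3 of the 5 weakest were at chr2:143969170-143969940, chr5:41780713-41781566 and chr2:11347067-11348123. In all, 46 members scored under 100 in every list and 48 scored at least 120 in every list.

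The sites nearest to the limit on either side were picked by their highest score, so closeness in that score is given by the choice. Just inside it, the site at chr16:78451314-78452188 scored 149.97 in the 4-OHT list, 141.6 in the repeated list and 141.7 in the vehicle list. Just outside it, the site at chr1:191438883-191439814 scored 150.1 in the 4-OHT list, 142.3 in the repeated list and 135.6 in the vehicle list. The 5 members nearest below the limit had highest scores of 149.91 to 149.97, and the 5 sites nearest above it 150.02 to 150.1. Other sites next to the limit had lower scores in the remaining lists. Inside it, chr16:64723240-64723980 scored 105.8, 149.97 and 83.2 in the same order of lists. Outside it, chr17:56292856-56293800 scored 150.05, 113 and 92.8. The class is a range of a continuous score, and its edge is set by the rule.

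Weak shared sites were narrow. The merged site had a median width of 944 bp (interval 930 to 962 bp), with quartiles of 848 and 1087 bp, and 557 of the 916 (60.8%) were under 1 kb. Only 14 (1.53%) were 2 kb or wider. Other shared sites had a median of 1582 bp, and 29.6% of them were 2 kb or wider. Medians were larger in higher score classes, at 1123 bp at shared sites under 150 in 1 or 2 lists, 1366 bp at a lowest score of 150 to 500, 1767 bp at 500 to 1000, and 2166 bp at the 9394 strong sites, which scored 1000 or more in all 3 lists. Width comes from the same peak calls as the score, so this order is a description.

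**Figure D2:**
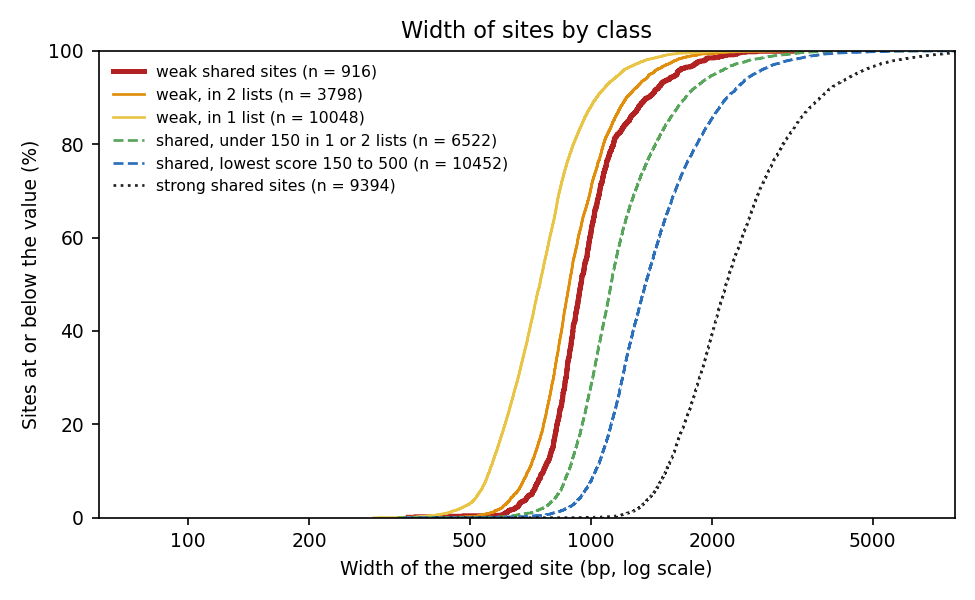
Cumulative share of sites (vertical axis, percent) by width of the merged site (horizontal axis, bp, log scale) for weak shared sites, weak sites in fewer lists and shared sites of higher score. Weak shared sites (median 944 bp) lie between weak sites of 2 lists (883 bp) and shared sites under 150 in only some lists (1123 bp), far to the left of strong sites (2166 bp).

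As the plot of widths shows, sites weak in fewer lists were narrower still, but part of that gap comes from merging. A site of 3 peaks spans more than any 1 of them. The merged median was 883 bp at the 3798 weak sites of 2 lists and 747 bp at the 10048 weak sites of 1 list. Within the 4-OHT list, the peaks themselves had medians of 832 bp at members, 805 bp at weak sites of 2 lists and 736 bp at weak sites of 1 list. Within the vehicle list the 3 medians were 809, 804 and 743 bp. A member's peak was thus hardly wider than that of a weak site that 1 list had missed.

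Among the members, width went with score and with position. It was 892 bp (median) at the 46 members with a highest score under 100 and 979.5 bp at the 256 with a highest score of 140 to 150. It was 1036 bp at the 72 members within 5 kb of a strong site and 847 bp at the 37 that were 500 kb or farther from one.

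Most members were a single peak in every list. This held for 907 of the 916, and the other 9 had 2 peaks in at least 1 list. The 4-OHT list split 8 members, the repeated list 3 and the vehicle list 0.

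The narrowest member lay at chr11:105893170-105893521. Its 352 bp were called as 343 bp in the 4-OHT list, 335 bp in the repeated list and 352 bp in the vehicle list, with scores of 111, 133 and 132 in that order. The next were 366 bp at chrX:72999044-72999409 and 448 bp at chr8:19963794-19964241. At the chromosome 11 and chromosome 8 sites all 3 lists placed nearly the same edges, since 334 and 434 bp were common to the 3 peaks.

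The rule asks for overlapping peaks, chained across the 3 lists, so a shared position is given by the choice at every shared site. Within that bound, midpoints lay about as close together at members as at strong sites. Midpoints in the 4-OHT and vehicle lists were a median of 52.5 bp apart at members, 59.0 bp apart at other shared sites and 60.5 bp apart at strong sites. Between the 4-OHT and repeated lists the medians were 52.5 and 55.5 bp, and between the repeated and vehicle lists 53.5 and 61.0 bp. In 92.8% of members the 4-OHT and vehicle midpoints were within 200 bp of each other, against 88.4% of other shared sites. Peaks of members are shorter, which leaves less room for midpoints to differ. The stretch common to all 3 peaks was a median of 693 bp, or 74.9% of the merged width, against 1207 bp and 81.0% at other shared sites. Wider peaks overlap by a larger share for the same shift.

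At 6 members the 3 peaks had no base in common, so their place in the class rests on chained overlaps. The 4-OHT and vehicle peaks did not touch at 3 of these, the 4-OHT and repeated peaks at 2, and the repeated and vehicle peaks at 1. The widest member is one of them. It lay at chr15:63913098-63916282 (3185 bp), with a peak of 2110 bp in the 4-OHT list, 2549 bp in the repeated list and 876 bp in the vehicle list. The 4-OHT and vehicle midpoints were 1601 bp apart there, and the scores were 104, 123 and 91.1 in the same order of lists.

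Peaks of members were slightly wider after 4-OHT than under vehicle. The median was 832 bp in the 4-OHT list and 809 bp in the vehicle list, and the median difference within a site was 32.0 bp. At other shared sites the medians were 1411 and 1298 bp, and the median difference was 87.0 bp. The 4-OHT list had the wider peak of the 2 lists at 539 members, or 58.8% (55.6% to 62.0%), where the background over all 31871 shared sites was 68.8%. The repeated list exceeded the vehicle list in peak width at 59.2% of members, with a background of 75.3%. The 4-OHT list exceeded the repeated list at 49.6% of members, with a background of 41.5%. In classes of higher score the 4-OHT list had the wider peak of these 2 lists at 70.7% of shared sites under 150 in 1 or 2 lists, 66.3% of those with a lowest score of 150 to 500 and 71.8% of strong sites. Width comes from the calls that chose the members, so the lower share at members is a description, and the part of that choice in it was not tested. Treatment cannot be told apart from the library here.

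Weak shared sites lay farther from strong sites than other shared sites did. The distance between the nearest edges of a member and the closest strong site had a median of 55.7 kb (interval 47.1 to 60.8 kb), with quartiles of 18.8 and 122.3 kb. Other shared sites had a median of 38.9 kb (38.1 to 39.7 kb). The medians were 42.1 kb at shared sites under 150 in 1 or 2 lists, 40.4 kb at a lowest score of 150 to 500 and 38.3 kb at 500 to 1000. Strong sites were 36.2 kb from the next strong site. Weak sites held by fewer lists came closest to the members, with 47.0 kb for those of 2 lists (43.9 to 49.6 kb) and 44.6 kb for those of 1 list (43.2 to 46.1 kb), and the first of these intervals overlaps that of the members. Position was not part of the rule, but sites of a chromosome are not independent, so no p-value is given. Without the vehicle list, strong sites were those of 1000 or more in the 2 remaining lists, so the sites measured to changed as well. The medians were then 33.3 kb at 4002 sites weak in both lists and 27.9 kb at other shared sites. The gap kept its direction, and its size cannot be set against the one above.

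**Figure D3:**
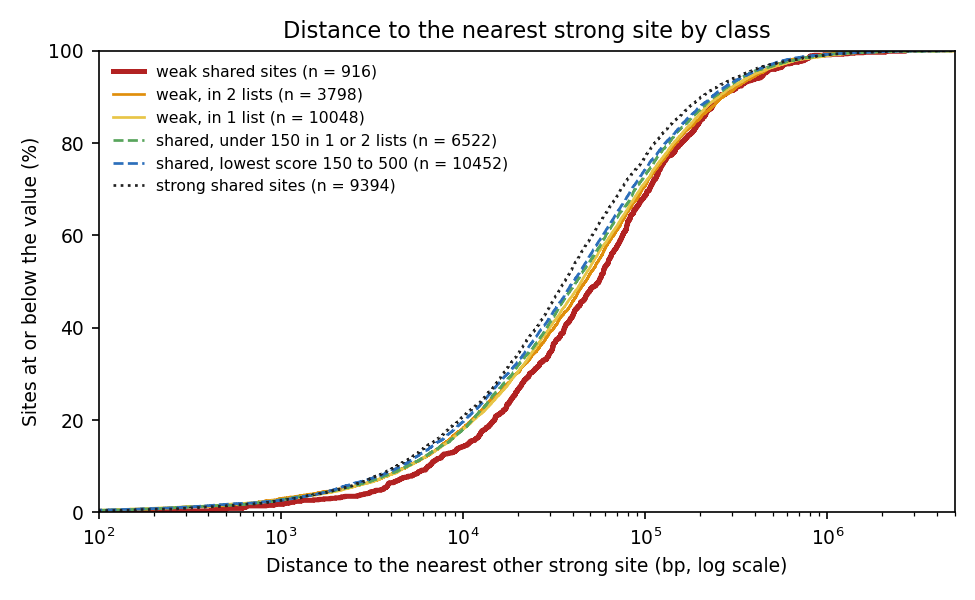
Cumulative share of sites (vertical axis, percent) by distance to the nearest other strong site (horizontal axis, bp between edges, log scale), with strong sites as those of 1000 or more in all 3 lists. The curve of weak shared sites runs below the others between about 1 kb and 100 kb, with 14.3% of them within 10 kb against 20.7% of strong sites.

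The plot of distances places the gap at short and middle range. Within 10 kb of a strong site lay 131 members, or 14.3% (12.2% to 16.7%), against 19.7% of other shared sites, 18.2% of weak sites of 2 lists and 18.0% of those of 1 list. Within 5 kb the share was 7.86% of members and 11.0% of other shared sites. At 100 kb and over were 288 members, or 31.4% (28.5% to 34.5%), against 25.1% of other shared sites. At 500 kb and over the shares were 4.04% (2.94% to 5.52%) and 2.99%. Weak peaks that touch a strong peak in any list are merged into it, which can empty the first kilobase for every weak class. Under 1 kb were 16 members, or 1.75%, against 2.72% of weak sites of 1 list.

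The longer distance was found on most chromosomes but not on all. The members' median was above that of other shared sites on 17 of 20 chromosomes. The exceptions were chromosome 5 (29.9 kb at members, 33.8 kb at other shared sites), chromosome 13 (53.8 and 58.4 kb) and X (69.7 and 74.1 kb). The widest gaps included chromosome 9 (68.6 kb at members, 35.6 kb at other shared sites) and chromosome 19 (61.3 and 29.9 kb). Against weak sites held by fewer lists the members' median was longer on 14 of 20 chromosomes.

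Members also stood alone more often. No other site of any class had its midpoint within 50 kb at 102 members, or 11.1% (9.26% to 13.3%). The share was 5.97% at other shared sites (5.71% to 6.24%), 7.35% at weak sites of 2 lists, 7.34% at weak sites of 1 list and 6.90% at strong sites. The nearest site of any kind was a median of 7.77 kb away (6.81 to 8.91 kb), against 5.50 kb for other shared sites and 5.62 kb for weak sites of 2 lists.

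The classes of site next to a member were compared with those next to other shared sites. The nearest site was a strong one for 148 members (16.2%) and for 17.4% of other shared sites. It was a weak site of 1 list for 197 members (21.5%), against 18.5% of other shared sites. It was another member for 11 (1.20%), against 1.73% of other shared sites. It was a shared site under 150 in 1 or 2 lists for 138 members (15.1%), against 12.6% of other shared sites, and a site of fewer lists with 150 or more for 90 (9.83%), against 12.3%.

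The next member was a median of 605 kb away. A small class is spaced widely by its size alone. The same distance is not given for other sites, so the spacing is a description and not a trait of members. Another member lay within 10 kb of 14 members (1.53%) and within 100 kb of 114 (12.4%). On a fixed grid of 100-kb windows, 842 windows held a single member, 34 held 2 and 2 held 3. Both windows of 3 were on chromosome 15, where members were also most frequent. In the window that starts at 38700001 they lay at chr15:38718950-38720749, chr15:38758471-38759764 and chr15:38796135-38796996. In the window that starts at 83200001 they lay at chr15:83255661-83256889, chr15:83277913-83279350 and chr15:83281541-83282838, with scores of 102 to 138 in the 4-OHT list, 93.4 to 138 in the repeated list and 93.0 to 145 in the vehicle list.

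The members farthest from a strong site were picked by that distance, so a long stretch without one is given by the choice. The farthest was at chr1:102676145-102676903, 2683 kb from the nearest strong site. It scored 82.8 in the 4-OHT list, 99.3 in the repeated list and 80.4 in the vehicle list. A second member of the same stretch, at chr1:102067964-102068702, was 2075 kb from that same strong site and scored 81.8, 91.2 and 91.1. The member at chr10:102905553-102906439 was 2104 kb from a strong site and 2066 kb from a site of any kind. It scored 142 in the 4-OHT list, 110 in the repeated list and 98.1 in the vehicle list. A peak in all 3 lists is part of the rule, so it adds no support for this site. The others of the 5 farthest were at chrX:145311913-145312738 (1580 kb) and at chr6:68618368-68618975 (1400 kb).

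The members closest to strong sites were picked by that distance, so a much higher peak beside them is given by the choice. The closest, at chr4:32334968-32336350, ended 125 bp before a strong site that scored 3100 in all 3 lists. The member scored 113 in the 4-OHT list, 118 in the repeated list and 95.8 in the vehicle list. The next was at chr10:122424396-122425557, 180 bp from a strong site. The others were at chr3:32407477-32408470, chr11:120109052-120110725 and chr1:93144650-93145468, between 0.22 and 0.42 kb from a strong site.

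Weak shared sites were found on all 19 autosomes and on X, at uneven rates. Their share of the shared sites of a chromosome was highest on chromosome 15, with 70 of 1627 or 4.30% (3.42% to 5.40%). Chromosome 14 followed with 45 of 1146 or 3.93% (2.95% to 5.21%), and chromosome 19 with 39 of 1075 or 3.63% (2.67% to 4.92%). The lowest shares were on chromosome 5, with 38 of 2048 or 1.86% (1.35% to 2.54%), chromosome 13 with 31 of 1388 or 2.23%, and chromosome 8 with 40 of 1781 or 2.25%. On X the share was 19 of 584, or 3.25% (2.09% to 5.03%), against 2.87% on the autosomes. Most intervals include the share over all chromosomes, 2.87%, and those of chromosomes 15 and 14 (both above it) and 5 (below it) do not. Without the repeated list, chromosome 15 no longer had the highest of these 6 shares, with 9.26% there and 9.33% on chromosome 14.

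**Figure D4:**
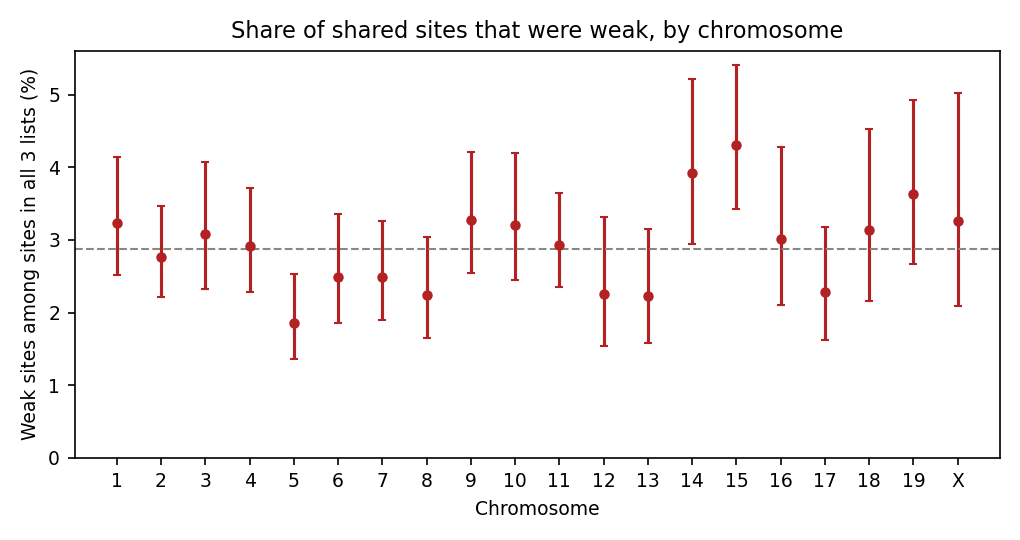
Share of the sites in all 3 lists that were weak (vertical axis, percent) on each chromosome (horizontal axis), with Wilson 95% intervals as bars and the share over all chromosomes (2.87%) as a dashed line. Chromosomes 15 (4.30%) and 14 (3.93%) lie above the line with their whole intervals, and chromosome 5 (1.86%) below it.

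The plot of shares by chromosome counts low scores, since these define the class. Chromosome 15 had the highest share of shared sites under 150 in each list taken alone, 9.40% in the 4-OHT list, 8.91% in the repeated list and 23.7% in the vehicle list. The same shares over all chromosomes were 6.90%, 7.05% and 21.2%. The median score of its shared sites was 584 in the 4-OHT list, 613 in the repeated list and 347 in the vehicle list, against 681, 765 and 392 over all chromosomes. Chromosome 14 had lower medians still, at 580, 611 and 340 in the same order. A high share did not always go with low medians. They were 708, 823 and 416 on chromosome 19 and 1041, 1286 and 659 on X. In windows of 10 Mb with at least 50 shared sites, 8 of 213 windows held no member. The highest share was 6 of 65 sites on chromosome 4 between 30 and 40 Mb, followed by 8 of 92 on chromosome 15 between 60 and 70 Mb, counts too small to rank the windows firmly. By length, members numbered 0.70 per Mb of the stretch spanned by sites on chromosome 15, 0.67 on chromosome 19, 0.64 on chromosome 11 and 0.12 on X. Shared sites of all scores numbered 16.2, 18.5, 21.9 and 3.59 per Mb on the same chromosomes.

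Members of chromosome 15, and to a lesser degree of chromosome 19, were wider than those elsewhere at similar scores. The median was 1251 bp on chromosome 15 (interval 1086 to 1491 bp, 70 sites) and 1114 bp on chromosome 19 (988 to 1215 bp, 39 sites), against 929 bp on all other chromosomes (915 to 942 bp, 807 sites). The medians of the other 18 chromosomes ran between 849 and 1006 bp. The same order stood in single lists. In the 4-OHT list the median peak was 1076 bp on chromosome 15, 928 bp on chromosome 19 and 821 bp elsewhere. In the repeated list it was 1076, 942 and 821 bp, and in the vehicle list 1016, 956 and 796 bp. Median scores were 110 on chromosome 15, 111 on chromosome 19 and 116 elsewhere in the 4-OHT list. They were 115, 116 and 114 in the repeated list and 101, 104 and 98.7 in the vehicle list, so they were lower on both chromosomes in the first list and higher in the other two.

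**Figure D5:**
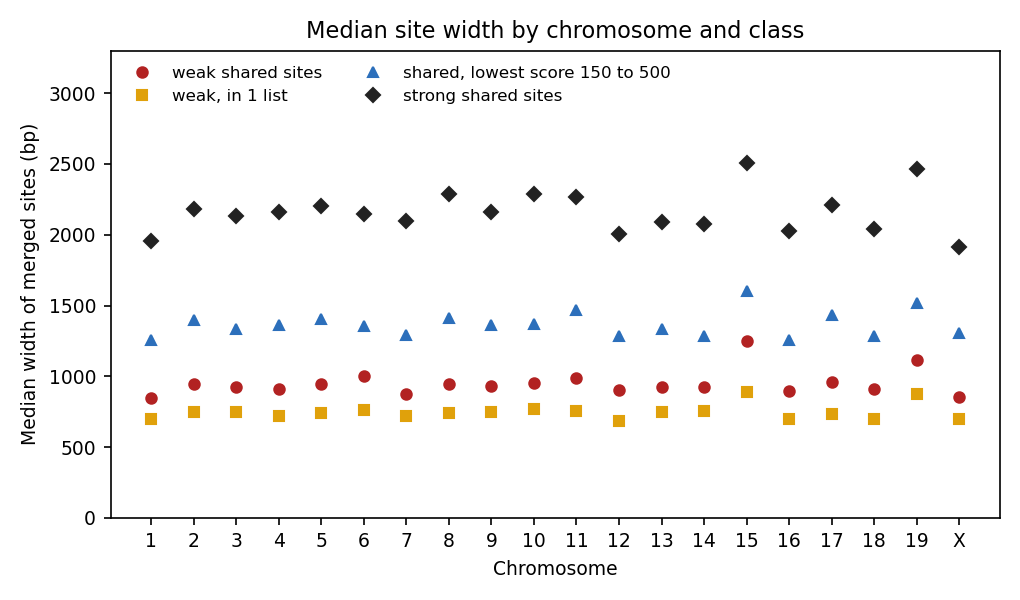
Median width of merged sites (vertical axis, bp) on each chromosome (horizontal axis) for weak shared sites, weak sites of 1 list, shared sites with a lowest score of 150 to 500, and strong shared sites. In all 4 classes chromosomes 15 and 19 have the widest medians, 1251 and 1114 bp at weak shared sites and 2506 and 2464 bp at strong sites.

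The widest members were concentrated on chromosome 15. Of the 14 members of 2 kb or wider, 8 lay on chromosome 15, 2 on chromosome 10 and 1 each on chromosomes 3, 6, 16 and 19. Besides the site of 3185 bp described above, chromosome 15 held chr15:74556697-74559117 (2421 bp), chr15:58805379-58807735 (2357 bp) and chr15:38118427-38120743 (2317 bp). The other of the 5 widest was at chr3:101124363-101126939 (2577 bp), where the 4-OHT and repeated lists each had 2 peaks. Widths of 1200 bp or more were found at 39 of the 70 members of chromosome 15 (55.7%), 13 of the 39 of chromosome 19 (33.3%) and 99 of the 807 elsewhere (12.3%).

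The greater width on these chromosomes was not particular to weak shared sites. Weak sites of 1 list, which share no site with the members, had medians of 886 bp on chromosome 15, 876 bp on chromosome 19 and 734 bp elsewhere. Weak sites of 2 lists had 1094, 1119 and 871 bp. Shared sites with a lowest score of 150 to 500 had 1606, 1519 and 1353 bp, and strong sites 2506, 2464 and 2143 bp. Each of these classes was thus wider on chromosomes 15 and 19 than elsewhere.

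Windows of 10 Mb showed where along the chromosomes this applied. They were ranked by the median width of weak sites of 1 list, with at least 10 such sites in each of 232 windows, so that no member took part in the ranking. The first 8 windows were all on chromosome 15 (6 windows) or chromosome 19 (2 windows). On chromosome 15 they covered 10 to 40 Mb and 50 to 80 Mb, and on chromosome 19 40 to 60 Mb. In the first 15 windows, a number chosen after the widths had been seen, the 108 members had a median width of 1124 bp (1068 to 1280 bp), against 935 bp (922 to 949 bp) for the 781 members of the other windows. Members were 4.59% of the shared sites of the first 15 windows (3.82% to 5.51%) and 2.72% of those of the others (2.54% to 2.91%). Not all of chromosome 15 ranked high. The median of weak sites of 1 list was 918.5 bp between 70 and 80 Mb (rank 8) and 755 bp between 80 and 90 Mb (rank 84). Farther on it was 771.5 bp between 90 and 100 Mb and 780.5 bp between 100 and 110 Mb. Between 80 and 90 Mb of chromosome 15 the members' median was 1070 bp, and between 70 and 80 Mb 1102 bp, while between 60 and 70 Mb it was 1625 bp. These last values rest on 7, 16 and 8 members. Member widths did not follow the ranking throughout. Their median was 1252 bp between 100 and 110 Mb (rank 43, 5 members) and 863 bp between 10 and 20 Mb (rank 1, 1 member).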

How the data were processed

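DNase-seq peak lists of 4 libraries were used. Per the submitters' processing notes, BWA 0.6.2, SAMtools, MACS 1.4.1 and the mouse build mm9 were used, without their settings. Scores are those deposited by the authors, one per peak as the caller gave it, and ran between about 80 and 3233 in each list, and their meaning as minus 10 times the log10 of a p-value is taken from the caller's name and not from a file header. Whether the input entered the calls, whether peaks were called per library and the depth are not given in the sources used here. Where depth is unknown, a site missing from a list was not detected there.

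DNase I digests of nuclei at 200 to 300 U/ml were picked by qPCR and fragments under 500 bp kept, per the labels' protocols. Peaks were merged with Python 3.11.15 and pandas 2.3.3, and the number of merged sites equalled that of bedtools 2.31.1. Starts are counted from 1, on mm9. Distances are bases between the nearest edges of sites. The site classes and distances were checked on simulated lists. Shares carry Wilson 95% intervals (scipy 1.17.1) and medians 95% intervals from binomial order statistics. Figures used matplotlib 3.10.9. Genes, promoters and sequence were not analysed here, because the gene table at hand is of another build. Named sites are the 5 farthest from and 5 nearest to a strong site, the 5 widest and 3 narrowest, the 5 with the lowest highest score, the 5 on each side of the limit and the 3 fullest windows of 100 kb, with ties in genome order. Of these only some are printed. The sites, classes and rules were chosen with earlier results of these data known.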

Additional observations from a re-analysis of the deposited data

How the results depend on the processing

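The number of weak shared sites followed the limits on the score. It was 255 at a limit of 120, 2548 at 200, 259 with only peaks of at least 100, and 12 with the 35149 highest peaks of each list, since that length leaves no 4-OHT peak under 147.6. Leaving out each library gave 916 to 4002 sites, and leaving out the repeated list under both labels gave 2291 (an alternative chosen after seeing the data). The median distance to a strong site was 77.0 kb at equal list length, 33.3 kb with strong sites of 500 or more, 187 kb with 3000 or more, and 33.3 to 55.7 kb without each library. The members' median distance exceeded that of other shared sites under every alternative run, by 1.19 to 2.01 times. The highest ratio rests on 12 members at equal list length. Their interval of 24.8 to 130.7 kb includes the 38.4 kb of other shared sites. Among these alternatives are the runs, named below, that repeat the main values. The median width was 920 bp at a limit of 120, 1001 bp at 200, 987 bp with peaks of at least 100, 1026 bp at equal length, 889 to 944 bp without each library, 921 bp without the repeated list and 929 bp without chromosomes 15 and 19 (also chosen after seeing the data). The 4-OHT list had the wider peak, set against the vehicle list, at 54.8% of members with peaks of at least 100. The interval there was 48.7% to 60.8%, so which list was wider more often is unclear in that run. Where chromosome 15 was kept, its members were 1.11 to 1.41 times as wide as those outside chromosomes 15 and 19. The lowest value rests on 1 member at equal list length. Chromosome 15 had the highest weak share of the 6 named chromosomes in 12 of 14 alternatives. The exceptions were equal list length and leaving out the repeated list. The 14 include the runs without 4-OHT 4 h replicate 1 and without EtOH 0 h replicate 2, which repeat the main values. Without 4-OHT 4 h replicate 2 or EtOH 0 h replicate 1, widths of the 4-OHT and vehicle lists cannot be compared. No paired analysis was possible because the results come from no test and 1 list carries both labels.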
